A study of Ginkgo biloba with 7 samples.

Results

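The genes described here are the 84 that the deposited target table of Ginkgo biloba ovules pairs with names of miR396 and with no other miRNA family, out of 902 target genes and 43456 genes with expression values. A further 15 genes are listed for miR396 and for another family, and they were kept apart. Membership followed the listing alone: every gene paired with a name whose number is 396, without a further digit, was taken, and each gene was then sorted by the arm mark of the names that list it. Of the 279 miRNA names with reads, 21 belong to miR396 and 18 of these list at least 1 gene.

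miR396 is one of the conserved plant miRNAs. In flowering plants such as Arabidopsis it pairs with mRNAs of the growth-regulating factors (GRFs), transcription factors that work with the GRF-interacting coactivators (GIFs) to promote cell division in leaves and floral organs, and pairing leads to cleavage of the mRNA or to less protein. A miRNA is cut from a hairpin precursor, and the strands of the 5p and the 3p arm can both be sequenced. The prefix of a name gives the species in which the sequence was registered (ath for Arabidopsis thaliana, vvi for grapevine, gma for soybean, hbr for rubber tree, mdm for apple, ppe for peach, ptc for poplar, atr for Amborella, pde for a pine), so several names can describe the same Ginkgo molecule.

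The study compared the mature ovule while it secreted its pollination drop (PD) with the pollinated ovule 1 day after pollination (PN). Ovules came from several trees of the Fozhi cultivar, no treatment is labelled, and there were no unpollinated ovules of the later day, so pollination and elapsed time cannot be told apart. Each stage had 1 small RNA library and 2 labelled mRNA samples. Of the mRNA columns, 1 per stage could be matched to a sample by its header. Each comparison below is therefore 1 library against 1, without replicates, and no test between stages was possible. In whole ovules, fewer cells that express a gene and less RNA per cell cannot be told apart. The target table belongs to a mixed ovule sample of both stages and gives no cleavage reads or scores, so all listed pairs carry equal weight. The files do not pair gene IDs with names or functions. Which of the 84 genes are GRFs could not be read, the list of GRF and GIF genes could not be formed, and the tissue and any pollen RNA could not be checked by marker genes.

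Summed over all 279 miRNA names, the counted reads were 774387 in the PD small RNA library and 1129198 in the PN one. These totals are sums over names, not the numbers of reads sequenced, and a read counted under several names would enter them more than once. The mRNA values are FPKM (fragments scaled to gene length and to library size), from which only a relative depth can be read: the steps of low values placed the PN library at 1.18 times the depth of PD.

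miR396 made up 3.02% of counted reads in PD (exact 95% interval 2.98 to 3.06) and 3.78% in PN (3.75 to 3.82). By arm mark, the 3 names marked 5p held 7975 reads in PD and 15489 in PN, the 7 marked 3p held 3852 and 7314, and the 11 unmarked names held 11554 and 19928. The PN-to-PD ratio of shares was 1.33 for 5p (1.296 to 1.37), 1.302 for 3p (1.25 to 1.35) and 1.18 for unmarked names (1.16 to 1.21), so all 3 sums were moderately higher after pollination. The intervals are exact conditional binomial intervals. They cover counting error only and say nothing of variation between ovules. How reads were assigned to names is not stated, and reads counted under several names would make the intervals too narrow. Such reads could raise or lower the shares, because the totals hold the names of the other families too. Repeated counting in those families was not examined. With nearly identical names counted once, miR396 had 13130 reads in PD and 23206 in PN, or 1.70% and 2.06% of all counted reads. The totals were left unreduced, so these shares set a reduced sum against a whole that still holds every name.

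Beneath these sums, several names had equal or nearly equal counts. The name with most reads, ath-miR396b-5p, had 7074 reads in PD and 14260 in PN, and vvi-miR396b had 7030 and 14184. The counts of this pair lay within 1% of each other in both libraries, and together they held 60.3% of miR396 reads in PD and 66.6% in PN. The 3p names ama-miR396-3p and ath-miR396b-3p had identical counts, 1410 in PD and 2886 in PN. A further set of nearly equal counts crossed the arm marks. ath-miR396a-5p and zma-miR396g-3p both had 878 and 1158 reads, and gma-miR396h had 877 and 1157. An arm mark in a name is therefore no sure guide to the arm that was read, and the sum of 3p names without zma-miR396g-3p had a ratio of 1.42 in place of 1.302.

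The names differed between the stages in both directions. The share of ath-miR396b-5p was 1.38 times higher in PN (1.34 to 1.42), that of ath-miR396b-3p was 1.40 times higher (1.32 to 1.497), and mdm-miR396a went from 78 to 168 reads, a ratio of 1.48 (1.12 to 1.96). By contrast vvi-miR396a, with the most reads after that pair, went from 3312 to 4007 reads in the larger PN library, a ratio of 0.83 (0.792 to 0.869). The ratio of ath-miR396a-5p was 0.904 (0.828 to 0.989). Its direction held as a share of reads outside miR166 (0.965) and under median-of-ratios scaling (0.925), but both intervals then included 1, with upper bounds of 1.05 and 1.01. For vvi-miR396a they stayed below 1, with upper bounds of 0.927 and 0.889. The share of miR396 reads under vvi-miR396a was 14.2% in PD and 9.38% in PN.

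Of the 14 miR396 names with at least 50 reads, 9 had a higher share in PN with an interval above 1, against 43.3% of all 127 names of that size, and 4 had a lower share, against 29.9%. Several names of this family have equal or nearly equal counts, so they may not be independent. A single name, ptc-miR396g-5p, passed 2-fold, with 23 reads in PD and 71 in PN, a ratio of 2.12 (1.31 to 3.55). Over all 127 names with at least 50 reads, 8.66% passed 2-fold on the higher side by the same rule and 7.09% on the lower side. No miR396 name was at least 2-fold lower. The rarest names were hbr-miR396a with 1 and 4 reads, smo-miR396 with 1 and 3, and atr-miR396d and pde-miR396 with 0 and 2 each. A count of 0 allows up to 3 reads, or a TPM (reads scaled to 1000000 counted reads) of 3.87 in PD, so these 4 names show no difference that this depth could resolve.

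**Figure D1:**
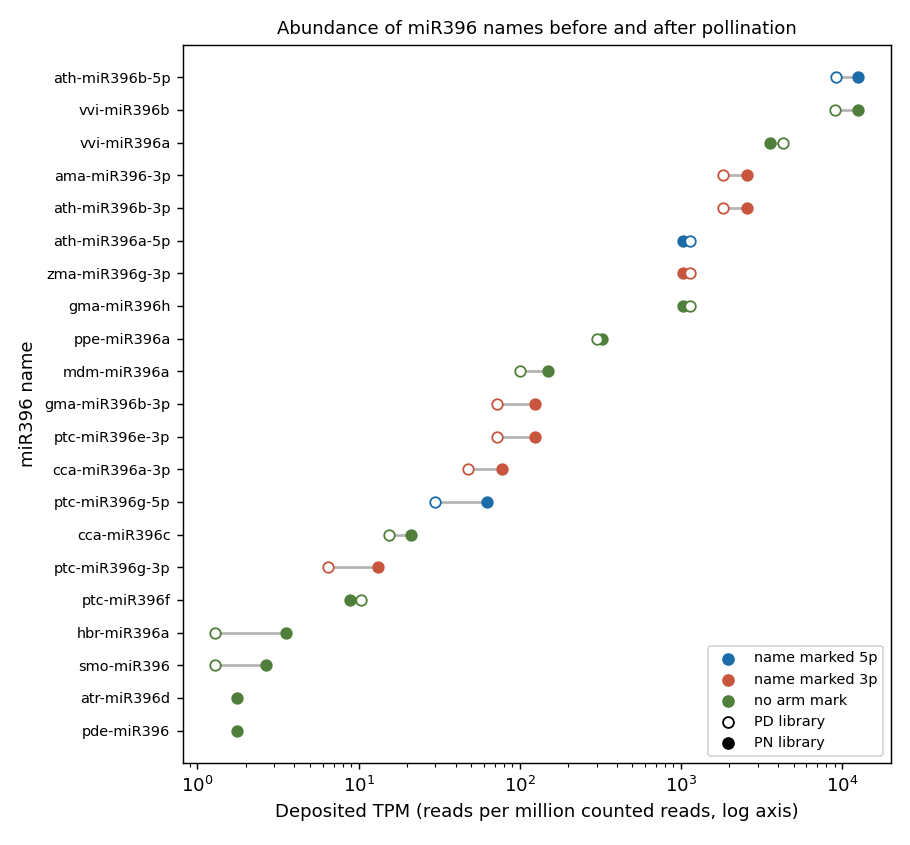
Deposited TPM (reads scaled to 1000000 counted reads, log axis) of the 21 miR396 names, ordered by total reads, with open circles for the PD library and filled circles for the PN library. Colours give the arm mark. ath-miR396b-5p and vvi-miR396b at the top lie further right in PN than in PD, while vvi-miR396a and the 3 names near a TPM of 1000 lie further left; atr-miR396d and pde-miR396 had 0 reads in PD and show only the PN circle.

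Reads of the 5p and 3p names that share a precursor name were also compared. For every 100 reads of ath-miR396b-5p there were 19.9 reads of ath-miR396b-3p in PD (exact interval 18.8 to 21.1) and 20.2 in PN (19.4 to 21.1). The rarer ptc-miR396g gave 21.7 reads of its 3p name per 100 of its 5p name in PD (6.46 to 58.5) and 21.1 in PN (11.2 to 37.2). The PD and PN values lay inside each other's intervals for both precursor names, so no shift between their 5p and 3p names was detectable at this depth.

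Reads and listed targets were distributed very differently over the names. The 8 names with at least 1000 reads held 97.8% of miR396 reads in PD and 97.6% in PN, and listed 25 of the 84 genes. The 7 names with fewer than 50 reads held 0.115% and 0.14% and listed 33 genes, 30 of which no more abundant name lists. The longest lists were those of hbr-miR396a (19 genes, 5 reads in all), gma-miR396h (16 genes, 2034 reads), mdm-miR396a (11 genes, 246 reads) and ppe-miR396a (9 genes, 602 reads). The most abundant names, ath-miR396b-5p, vvi-miR396b and vvi-miR396a, listed 1 gene each. Another 3 names listed none, among them ath-miR396b-3p, although its counts equal those of ama-miR396-3p, which listed 3. By arm mark, 65 genes were listed by unmarked names, 10 by 3p names and 9 by 5p names, and no gene of the 84 was listed under more than 1 arm mark.

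**Figure D2:**
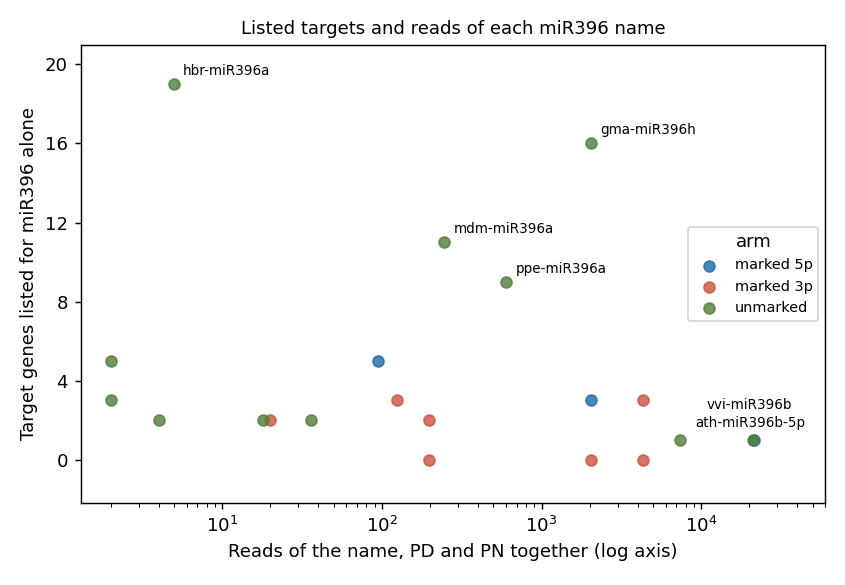
Number of genes listed for miR396 alone (vertical axis) against the reads of each of the 21 miR396 names over both libraries (log axis), 1 point per name, coloured by arm mark. hbr-miR396a lists 19 genes on 5 reads, while ath-miR396b-5p and vvi-miR396b, whose points coincide at the right, list 1 gene each.

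The listed genes were mostly well expressed. Of the 84, 78 had a mean of at least 1 FPKM over both libraries and were compared, and the other 6 were listed at 0 in both. That is 92.9%, close to the 87.9% of the 803 genes listed only for other miRNAs and above the 49.0% of all genes in the table. Their median level was 41.2 FPKM in PD and 52.6 FPKM in PN. Genes listed only for other miRNAs had medians of 36.7 and 42.3 FPKM, and all 21308 compared genes had medians of 11.98 and 12.6 FPKM. Levels above those of all genes were thus also seen in the pooled targets of the other miRNAs. In PD, 16 of the 84 genes reached 100 FPKM, but the share of all compared genes in PD was not counted. In PN, 22 of the 84 did, or 28.2% of those compared, against 8.53% of all compared genes. The share among genes listed only for other miRNAs was not counted.

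Differences between the stages were taken as log2(FPKM + 1) in PN minus PD, a scale that understates changes of low genes, and a difference of 1 or more (2-fold) was counted. On this scale 8 of the 78 genes (10.3%) were at least 2-fold higher in PN, against 9.27% of all compared genes, and 5 (6.41%) were at least 2-fold lower, against 6.86%. Both shares were near those of all genes, so at these settings the counts give no result about the miR396 targets as a group. The remaining 65 lay within 2-fold. The comparison depended on how low genes were treated. With a pseudocount of 5, 8 of the 78 genes stayed beyond 2-fold on the higher side against 4.27% of all genes. On the lower side 3 (3.85%) stayed against 3.52%. Without the filter on low values 8 of 84 (9.52%) were higher against 4.76%, and 5 (5.95%) were lower against 3.57%. With a pseudocount of 0.1 both shares lay below those of all genes. These were 10.3% against 12.9% on the higher side and 6.41% against 9.01% on the lower side. Of the compared genes, 74 of the 78 targets and 15316 of all 21308 had a mean of at least 5 FPKM. Among these genes, 8 targets (10.8%) were at least 2-fold higher against 8.81% of all, and 5 (6.76%) were lower against 6.98%. What part the difference in level had at the other settings was not tested. Under median-of-ratios scaling 7 of the 78 genes were higher and 5 lower, while 7.37% of all genes were higher and 8.54% lower. The median difference was 0.25, which is 0.14 above the median of all genes (0.11), and 51 genes (65.4%) were on the higher side of 0, against 56.9% of all genes. For the 50 compared genes listed by a name with at least 50 reads the median was 0.14, only 0.03 above that of all genes, and 62.0% were above 0. For the 28 listed only by rarer names it was 0.43, and 71.4% were above 0. For genes listed only for other miRNAs the median was 0.05 and 51.8% were on the higher side.

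**Figure D3:**
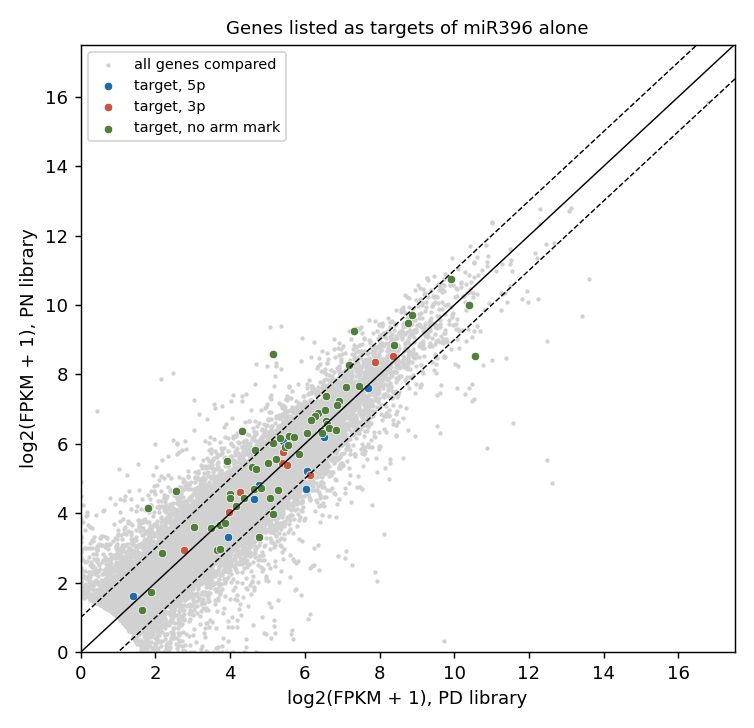
log2(FPKM + 1) in the PN library against the PD library for the 78 compared genes listed for miR396 alone, coloured by the arm mark of the listing name, over all 21308 compared genes in grey. The solid line marks equal values and the dashed lines 2-fold; 8 target genes lie above the upper and 5 below the lower dashed line.

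All 8 genes beyond 2-fold on the higher side were listed by unmarked names, which list 76.9% of the compared genes. The largest difference was that of Gb_21870, listed by hbr-miR396a, with 34.3 FPKM in PD against 385 FPKM in PN, 10.9-fold on the FPKM + 1 scale. It was followed by Gb_05056, also listed by hbr-miR396a, with 2.48 and 16.8 FPKM (5.12-fold). These genes thus owe their listing to a name with 1 read in PD and 4 in PN. Among the other 6 genes, 2 were listed by gma-miR396h, one at 4.86 FPKM in PD against 24.1 FPKM in PN and the other at 157 and 606 FPKM. A gene listed by mdm-miR396a had 19.03 and 82.5 FPKM, and a further gene of hbr-miR396a had 14.02 and 44.1 FPKM. The last of the 8, nearest to the 2-fold limit, were a gene of ppe-miR396a at 24.3 and 55.6 FPKM and a gene of atr-miR396d at 144 and 308 FPKM. They cover low, middle and high expression levels alike. The first gene inside the limit, listed by hbr-miR396a, had 34.2 and 64.0 FPKM, a difference of 0.88.

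The lower side was led by the gene that was the most abundant of the 84 in PD. Gb_21019, listed by mdm-miR396a, had 1503 FPKM in PD against 367 FPKM in PN, 4.09-fold lower on the FPKM + 1 scale, and ranked 50 among all genes in PD. Gb_35409, listed by the same name, had 26.2 and 9.03 FPKM (2.72-fold lower). Of the other 3 genes, one listed by ath-miR396a-5p had 64.1 and 25.2 FPKM, one listed by vvi-miR396b had 34.4 and 14.8 FPKM, and one listed by ptc-miR396g-3p had 69.1 and 33.7 FPKM. The last of these differed by -1.02 and was the nearest to the limit. On the other side of it stood Gb_36733, the single gene listed by ath-miR396b-5p, with 65.5 FPKM in PD against 36.01 FPKM in PN, a difference of -0.85. The pair of names with most reads thus lists 1 gene each, and both genes had lower FPKM in PN (differences of -0.85 and -1.16) while the shares of both names were higher (ratios of 1.38). The next most abundant name with a higher share, ama-miR396-3p (ratio 1.40), lists 2 compared genes, and both had slightly higher FPKM in PN (differences of 0.18 and 0.07). With 1 library per stage these are descriptions of single genes, and a relation between names and genes was not tested.

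Among the most abundant genes that stayed within 2-fold were Gb_40288, listed by hbr-miR396a, with 963 FPKM in PD and 1737 FPKM in PN, and Gb_05983, listed by the same name, with 1341 and 1025 FPKM. Only 5 genes were listed by more than 1 miR396 name. One of them was listed at 0 in both libraries, and the other 4 stayed within 2-fold. Gb_26136 was the single gene with 3 names (hbr-miR396a, gma-miR396h and ppe-miR396a) and had 92.8 FPKM in PD and 126 FPKM in PN. Gb_06255, listed by hbr-miR396a and atr-miR396d, had 467 and 845 FPKM, and Gb_07656, listed by gma-miR396h and smo-miR396, had 433 and 713 FPKM.

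The lists by arm mark are given as a description, beside all compared genes, of which 9.27% were beyond 2-fold on the higher side, 6.86% on the lower side and 56.9% above 0. The 9 genes of 5p names had a median difference of -0.25, with 3 genes above 0, 6 below it and 1 at least 2-fold lower. Of the 10 genes of 3p names, 9 were compared; their median was 0.17, with 7 genes above 0 and 1 at least 2-fold lower. The 60 compared genes of unmarked names had a median of 0.43, with 41 above 0, 8 beyond 2-fold on the higher side and 3 on the lower side. The ranges overlapped widely, from -1.31 to 0.67 for 5p, from -1.02 to 0.48 for 3p and from -2.03 to 3.45 for unmarked names. The 5p and 3p lists rest on 9 genes each. The counts of vvi-miR396b nearly equal those of a 5p name, and the counts of gma-miR396h nearly equal those of both a 5p and a 3p name, so whether the marks separate different molecules was not tested.

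Sorted by the direction of the listing name, the 22 compared genes listed by a name with a higher share in PN had a median difference of 0.05, with 12 above 0. The 20 genes listed by a name with a lower share had a median of 0.39, with 14 above 0, but 19 of these 20 came from gma-miR396h and ath-miR396a-5p, for which the interval of the ratio included 1 under the other scalings. The 28 genes listed only by names with fewer than 50 reads had a median of 0.43, with 20 above 0, and the 8 genes left to ppe-miR396a had one of 0.20. Genes whose listing names had almost no reads therefore had as high a median as genes of names with a lower share. No test was possible between these lists.

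**Figure D4:**
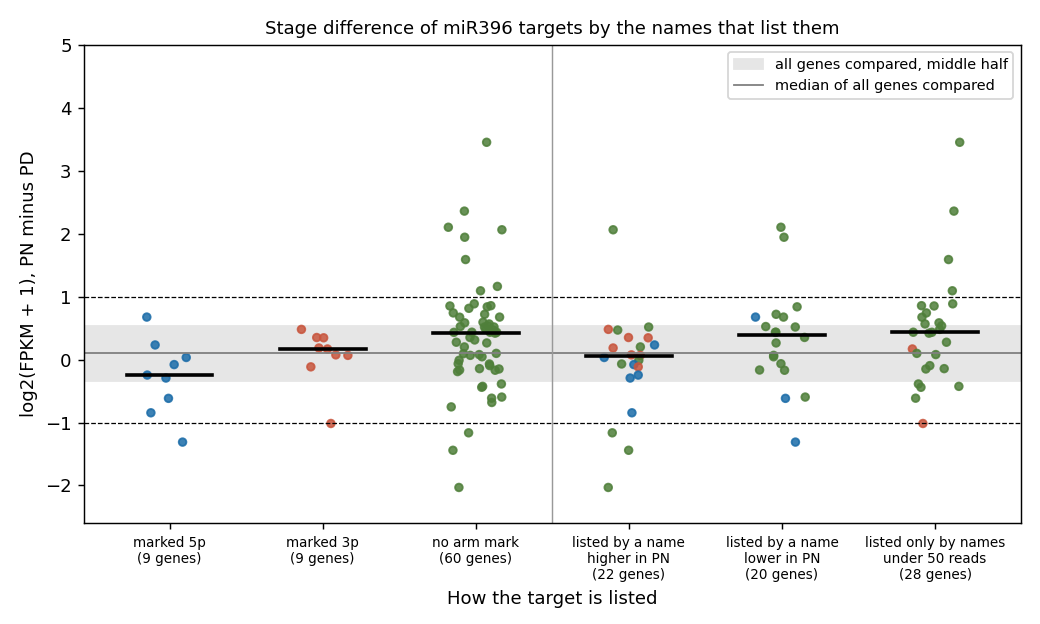
Difference in log2(FPKM + 1), PN minus PD, of the 78 compared genes, grouped on the left by the arm mark of the listing name and on the right by that name's change or read number, 1 point per gene with the group's median as a black bar. The grey band and line give the middle 50% and the median of all compared genes, and dashed lines mark 2-fold. The medians run from -0.25 (5p) to 0.43 (unmarked, and names under 50 reads), with wide overlap; the 8 genes left to ppe-miR396a appear only on the left.

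The 15 genes that miR396 shares with other families were also examined. Of these, 13 were compared and none passed 2-fold in either direction, where 9.27% of all genes passed on the higher and 6.86% on the lower side; on 13 genes nothing can be read from a count of 0. Their median difference was -0.06, with 6 above and 7 below 0. The most abundant, shared with miR390, had 673 FPKM in PD and 1000.5 FPKM in PN. The gene with the largest difference on the lower side, shared with miR172, had 276 and 162 FPKM.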

How the data were processed

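Gene values are FPKM computed by the authors, per the file headers. The submitters' processing notes list Bowtie, TopHat, TopHat2 2.0.12 and Cufflinks 2.1.1; genome build and annotation: not given in the sources used here. Of the 4 value columns, 2 share the header of PD sample 2 and were not used. Small RNA read counts per name were deposited as whole numbers without normalization. The deposited TPM values equal those counts scaled to 1000000 counted reads. The target table was deposited as name and gene pairs, and 8 repeated rows were dropped.

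Genes with a mean of at least 1 FPKM were compared on log2(FPKM + 1). The planned limma fit needs replicates and was not run. Names with at least 50 reads were compared by shares with exact binomial 95% intervals (Python 3.11.15, scipy 1.17.1). The intervals were checked on simulated independent counts of single names. That check does not cover sums of names that share reads. The alternatives were other pseudocounts, filters, limits, scalings and ways to sum names.

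The members and lists were chosen with earlier results of these data known. The rule for named genes took every gene beyond 2-fold, the most abundant genes, those with most names and those nearest the limits. Because the IDs carry no annotation, 2 IDs are printed in each direction beyond 2-fold, and the other genes that the rule took are given by value or by count. For the same reason the lists of GRF, GIF and pollen genes are empty.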

Additional observations from a re-analysis of the deposited data

How the results depend on the processing

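No paired analysis was possible because 1 mRNA column per stage could be matched to a sample, and fits that leave out a replicate were not run for the same reason. No alternative reversed the direction of the 4 ratios or of the target median. Counting nearly identical names once, leaving out zma-miR396g-3p and keeping only genes listed by a name with at least 50 reads were chosen after seeing the data. The 8 higher and 5 lower target genes became 19 and 11 at a 1.5-fold limit, where 22.7% and 15.7% of all genes passed. A pseudocount of 5 left 8 higher and 3 lower genes. Of the 50 compared genes listed by a name with at least 50 reads, 4 (8.0%) were higher and 4 (8.0%) lower. Among all genes these shares were 9.27% and 6.86%. The median difference was 0.15 under median-of-ratios scaling, which moved the median of all genes from 0.11 to 0.00. For genes listed by a name with at least 50 reads it was 0.14, against 0.11 for all genes. Pseudocount 5 took the counts of all genes to 910 higher and 751 lower. For the sum of miR396 (ratio 1.25) the name with most reads gave 1.38, reads outside miR166 as the total 1.34, median-of-ratios scaling 1.28 and nearly identical names counted once 1.21. The 5p ratio was 1.38 for its largest name and 1.42 outside miR166. The 3p ratio was 1.24 with identical and 1.23 with nearly identical names counted once, 1.40 for its largest name, 1.39 outside miR166 and 1.42 without zma-miR396g-3p. The unmarked ratio was 1.38 for its largest name and 1.26 outside miR166. Depth limits the 7 names under 50 reads.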
